A study of Equus caballus with 45 samples.

Results

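The genes described here are the ligands and receptors of the tumour necrosis factor (TNF) superfamily that both deposited count tables list by symbol. They were chosen by name: symbols that begin with TNFSF or TNFRSF and a digit, plus TNF, LTA, LTB, LTBR, FAS, FASLG, CD40, CD40LG, CD27, CD70, NGFR and EDAR. This gave 39 of the 20881 genes in the tables, of which 16 were ligands and 23 were receptors. A further 3970 table entries carry only an Ensembl identifier and were not searched. No TNFRSF10, TNFSF13 or EDA2R entry was listed by symbol in both tables.

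Superfamily ligands are mostly membrane-bound trimers that can be cleaved into soluble cytokines, and their receptors either carry a death domain, which recruits caspases, or bind TRAF adaptors, which lead to NF-kB and MAP kinase signalling. Some receptors lack a signalling tail and act as decoys. In joints, TNF is a main inflammatory cytokine, the pair RANKL (TNFSF11) and osteoprotegerin (TNFRSF11B) sets osteoclast formation, and TRAIL (TNFSF10), BAFF (TNFSF13B) and Fas ligand act in cell death and in lymphocyte survival.

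The study asked how equine bone marrow mesenchymal stromal cells (MSC) activated through TLR3 or STING, and medium conditioned by them (MSC-CM), act on joint cells. MSC from the horses PC, 99 and 92 were left untreated or given the TLR3 agonist poly I:C, the STING agonist 2′3′cGAMP or an agent labelled CpG, with 1 library for each horse and condition. The labels give an agonist exposure of 2 h and the sources differ on the dose. The MSC were then washed and cultured for a further 24 h. Synoviocytes, chondrocytes and monocyte-derived macrophages were each taken from 1 horse. They were stimulated with interleukin-1β and TNF-α and given MSC-CM for 24 h, then washed and kept for another 24 h. The medium came from untreated MSC (resting MSC-CM), TLR3-activated MSC (TLR-MSC-CM) or STING-activated MSC (STING-MSC-CM) of the donors PC, ORC and AG1, with 3 libraries for each medium. Whether the donors 99 and 92 are the horses ORC and AG1 under other names is not given in the sources used here. One library (n = 1) of each joint cell type had no addition, and 1 had the cytokines alone. The titles of these libraries name the donor ORC, or PC for synoviocytes with cytokines alone, while their descriptions name no donor. What the donor in these titles stands for is not given. The labels give 20 ng/mL of each cytokine for synoviocytes and chondrocytes and 10 ng/mL for macrophages, but the sources differ on the macrophage dose, and on whether the cytokines were washed off before the medium was added. Recombinant TNF-α was therefore given to every stimulated culture, and the values below are transcript levels only. Below, 3 MSC values follow the order PC, 99, 92, and 3 joint cell values follow the medium donors PC, ORC, AG1.

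Sequencing gave 23525704 to 54103873 gene counts per library with a median of 31660884 over 45 libraries, of which 12 were MSC and 33 were joint cells. Levels are given in CPM, the counts scaled to a common library total, and 3 counts, used as the floor of detection, corresponded to 0.0554 to 0.128 CPM. Marker genes fitted the macrophage label, since 15 macrophage markers summed to 9372 to 12820 CPM there and to at most 326 CPM elsewhere. In the same 11 macrophage libraries 9 T and NK cell markers summed to 334 to 598 CPM, against at most 4.62 CPM in the other 34 libraries. Chondrocytes were weakly marked: 10 cartilage markers summed to 41.0 to 321 CPM in them and to 8.62 to 22.7 CPM in synoviocytes, while synovial fibroblast markers were at 41670 to 74950 CPM in chondrocytes and at 67520 to 83520 CPM in synoviocytes.

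Most ligands reached 1 CPM in the macrophage libraries alone, which also held T and NK cell markers, while receptors were more often shared. A mean of at least 1 CPM in at least 1 condition was reached by 30 of the 39 members in macrophages (14 ligands and 16 receptors), by 19 in MSC (5 and 14), by 17 in synoviocytes (3 and 14) and by 15 in chondrocytes (2 and 13). Levels were not scaled by transcript length, so each gene is compared with itself and not with other genes. The 11 members that reached this level in all 4 cell types comprised 10 receptors (CD40, FAS, LTBR, TNFRSF1A, TNFRSF1B, TNFRSF8, TNFRSF9, TNFRSF12A, TNFRSF21 and TNFRSF25) and a single ligand, TNFSF12 (TWEAK). The 15 members that reached it in macrophages alone comprised 10 ligands (CD40LG, CD70, FASLG, LTA, LTB, TNF, TNFSF4, TNFSF9, TNFSF14 and TNFSF15) and 5 receptors (CD27, TNFRSF4, TNFRSF11A, TNFRSF13C and TNFRSF18). Another 5 reached it in a stromal cell type and not in macrophages, namely TNFSF11, TNFRSF6B, TNFRSF11B, TNFRSF17 and TNFRSF19. EDAR, NGFR, TNFRSF13B and TNFSF18 reached it nowhere, and EDAR and TNFSF18 had no more than 3 counts in any library. The remaining 4 members, TNFSF8, TNFSF10, TNFSF13B and TNFRSF14, reached it in macrophages and in part of the stromal types. MSC and joint cells were deposited as separate tables, so levels are set side by side between them without a test.

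**Figure D1:**
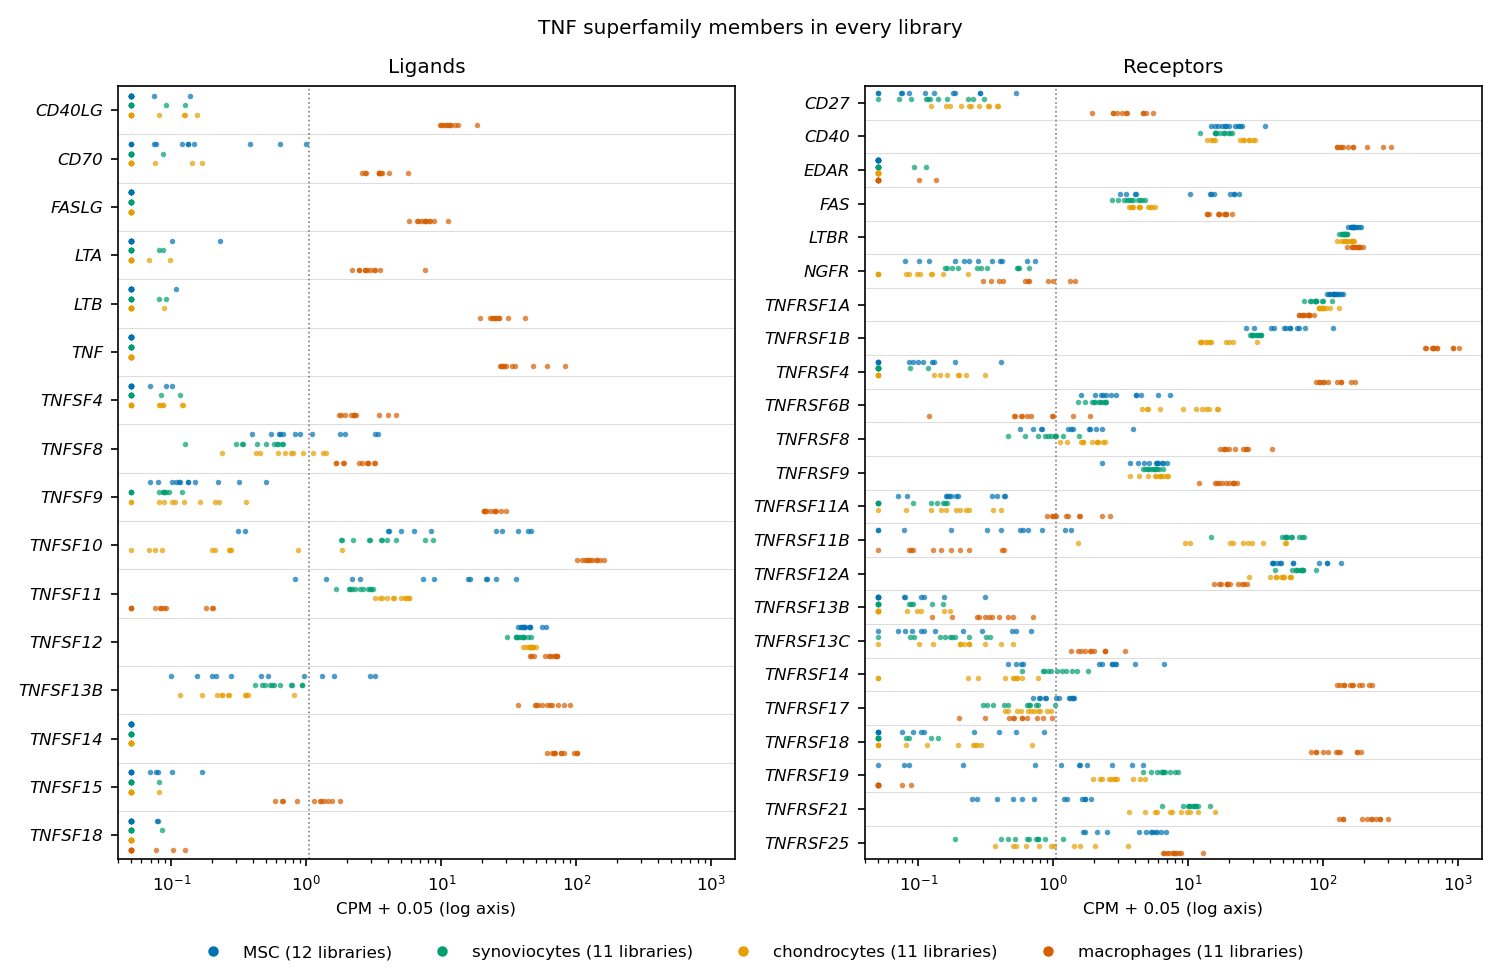
Level of each superfamily member in every library, with ligands on the left and receptors on the right. Each point is 1 library, placed at CPM + 0.05 on a log axis and coloured by cell type, and the dotted line marks 1 CPM. Ligands such as TNF, TNFSF14, LTB and CD40LG lie right of the line in the macrophage libraries only, while the receptors LTBR, TNFRSF1A and FAS lie right of it in all 4 cell types.

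With resting MSC-CM, macrophages were compared with each stromal joint cell type by the quasi-likelihood F test of edgeR, with p-values adjusted by Benjamini and Hochberg over all genes tested. Of the 37 members tested, 34 were called against synoviocytes, 29 of them higher in macrophages and 5 lower, and 35 were called against chondrocytes, 29 higher and 6 lower. Of all genes, 71.6% were called against synoviocytes (36.6% higher and 35.1% lower) and 71.5% against chondrocytes (36.6% and 34.9%). Many of the members passed the low-count filter only through their macrophage counts and so had to differ. The 3 replicates of a joint cell type differ in the MSC donor of the medium and not in the horse, so cell type and horse cannot be told apart. In bulk RNA, fewer cells of a kind and less RNA per cell cannot be told apart either.

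TNF itself was at 30.3, 28.4 and 61.1 CPM in macrophages with resting MSC-CM, and it had 0 counts in all 34 libraries of other cells, including the stimulated synoviocytes and chondrocytes. Set against a floor of 3 counts per library, the macrophage level was at least 388-fold higher than in synoviocytes and at least 403-fold higher than in chondrocytes, and TNF passed the low-count filter through its macrophage counts alone. Its receptors did not follow the ligand. TNFRSF1A, the widely expressed death domain receptor of TNF, was at 70.6, 77.7 and 78.1 CPM in macrophages, 79.0, 72.4 and 87.4 CPM in synoviocytes and 92.4, 92.5 and 95.5 CPM in chondrocytes. The macrophage and synoviocyte values overlapped, with a log2 difference of -0.11 ± 0.10 (SE, adjusted p = 0.357, edgeR), while the macrophage values were below all 3 chondrocyte values, at -0.32 ± 0.10 (adjusted p = 0.0141, edgeR). That call was lost without the macrophage library of donor PC (-0.27) or the chondrocyte library of donor AG1 (-0.30). TNFRSF1B, the TNF receptor without a death domain, was at 697, 581 and 1005 CPM in macrophages against 30.7, 29.9 and 31.96 CPM in synoviocytes and 12.3, 19.0 and 13.8 CPM in chondrocytes. The groups were far apart, with log2 differences of 4.59 ± 0.24 and 5.65 ± 0.25 (adjusted p = 3.16e-08 and 1.01e-08, edgeR).

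The lymphotoxins and LIGHT showed the same one-sided distribution. LTA was at 2.66, 2.68 and 2.90 CPM in these macrophages and never above 6 counts in any other library, and LTB, its membrane partner, was at 19.4, 31.3 and 24.9 CPM against at most 2 counts elsewhere. TNFSF14 (LIGHT), which signals through LTBR and TNFRSF14, was at 65.4, 81.6 and 95.8 CPM in macrophages and at 0 counts in the other 34 libraries, so that by the same floor it was at least 788-fold higher than in synoviocytes and at least 818-fold higher than in chondrocytes. LTBR, the shared receptor of LTB and LIGHT, was at 162, 189 and 164 CPM in macrophages, 131, 151 and 140 CPM in synoviocytes, 144, 127 and 157 CPM in chondrocytes and 185, 167 and 164 CPM in untreated MSC. Only the difference from synoviocytes was called, at a log2 difference of 0.26 ± 0.11 (adjusted p = 0.0453, edgeR), and that from chondrocytes was 0.25 ± 0.11 (adjusted p = 0.0522, edgeR). With the MSC donor as a block neither was called (adjusted p = 0.0536 and 0.0624), while DESeq2 called both (0.0241 and 0.0243), and leaving out single libraries ended the first call or made the second. TNFRSF14 (HVEM) differed far more, at 142, 158 and 127 CPM in macrophages against 1.102, 0.808 and 0.916 CPM in synoviocytes and at most 0.534 CPM in chondrocytes with resting MSC-CM. Its log2 differences were 7.20 ± 0.35 and 8.60 ± 0.39 (adjusted p = 2.07e-08 and 1.19e-08, edgeR).

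With resting MSC-CM, TRAIL, BAFF and TNFSF8 were carried at low level by stromal joint cells too. TNFSF10 (TRAIL), which triggers apoptosis through death receptors, was at 126, 142 and 111 CPM in macrophages and at 1.79, 1.76 and 2.18 CPM in synoviocytes. Chondrocytes held it at 0.228, 0.159 and 0 CPM. All 3 groups were apart, and the log2 difference was 6.01 ± 0.27 between macrophages and synoviocytes and -3.98 ± 0.45 between chondrocytes and synoviocytes (adjusted p = 1.11e-08 and 0.000206, edgeR). TNFSF13B (BAFF), a survival factor of B cells, was at 60.0, 55.4 and 37.1 CPM in macrophages and at 0.448, 0.588 and 0.505 CPM in synoviocytes, a log2 difference of 6.60 ± 0.31 (adjusted p = 1.68e-08, edgeR). Of the BAFF receptors, TNFRSF13C was at 1.67, 1.96 and 1.31 CPM in macrophages, TNFRSF13B stayed under 1 CPM in every group, and TNFRSF17 was at 0.531, 0.935 and 0.421 CPM, within the range of the stromal cells.

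The RANKL and osteoprotegerin axis ran the other way. TNFRSF11B (osteoprotegerin), the soluble decoy of RANKL and TRAIL, was at 69.2, 52.3 and 53.2 CPM in synoviocytes and at 35.7, 10.3 and 21.5 CPM in chondrocytes. Macrophages held it at only 0.186, 0.383 and 0.124 CPM, a log2 difference of -8.12 ± 0.56 from synoviocytes (adjusted p = 2.82e-07, edgeR). Untreated MSC, which had not been given cytokines, held it at 1.31, 0.359 and 0.124 CPM. TNFSF11 (RANKL) was likewise lower in macrophages, by -4.98 ± 0.65 and -6.15 ± 0.63 on the log2 scale against synoviocytes and chondrocytes (adjusted p = 4.75e-05 and 7.15e-06, edgeR). Its signalling receptor TNFRSF11A (RANK), a marker of osteoclast precursors, was at 1.51, 0.935 and 2.25 CPM in macrophages and at no more than 0.357 CPM in chondrocytes with resting MSC-CM. TNFRSF19 (TROY) had 0 counts in all 3 macrophage libraries with resting MSC-CM against 5.82, 5.21 and 6.19 CPM in synoviocytes, which made it at least 61.2-fold lower. TNFRSF12A (Fn14), the receptor of TWEAK, was also lower in macrophages, at 19.2, 19.3 and 24.9 CPM against 68.4, 87.9 and 64.7 CPM in synoviocytes (log2 difference -1.83 ± 0.14, adjusted p = 5.37e-07, edgeR), although TWEAK itself was 0.69 ± 0.14 higher on the log2 scale (adjusted p = 0.00143, edgeR).

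Several costimulatory pairs had both partners in the macrophage libraries. CD40LG, the ligand of helper T cells, was at 9.86, 10.6 and 11.2 CPM there, and CD40, the activating receptor of antigen-presenting cells, at 166, 127 and 277 CPM against 16.1, 15.9 and 18.4 CPM in synoviocytes (log2 difference 3.47 ± 0.31, adjusted p = 2.17e-06, edgeR). CD70 was at 3.40, 4.04 and 3.56 CPM and its receptor CD27, carried by lymphocytes, at 3.45, 4.55 and 3.17 CPM. TNFRSF4 (OX40) was at 88.5, 127 and 162 CPM with its ligand TNFSF4 at 1.89, 2.08 and 3.42 CPM, and TNFRSF18 (GITR) was at 81.0, 124 and 176 CPM with its ligand TNFSF18 not above 3 counts. FASLG, a cytotoxic ligand of T and NK cells, was at 7.39, 7.65 and 7.004 CPM and at 0 counts in all 34 other libraries, while FAS, its death receptor, was at 19.0, 16.6 and 19.0 CPM and also present in synoviocytes at 3.86, 3.60 and 4.20 CPM. Both TNFRSF4 and TNFRSF18 stood at no more than 39 counts in any library outside macrophages.

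Chondrocytes and synoviocytes with resting MSC-CM differed in 7 of the 37 members tested, against 18.1% of all genes called, 8.31% higher and 9.84% lower in chondrocytes (edgeR). Chondrocytes were higher in TNFRSF6B (decoy receptor 3, which binds Fas ligand and LIGHT), at 12.6, 4.92 and 16.3 CPM against 2.41, 2.24 and 1.96 CPM, a log2 difference of 2.34 ± 0.44 (adjusted p = 0.00417), and in TNFRSF8 (CD30), at 1.89, 1.07 and 1.60 CPM against 0.723, 0.992 and 0.569 CPM, or 1.01 ± 0.27 (adjusted p = 0.0264). They were lower in TRAIL as given above, in TNFRSF1B by -1.05 ± 0.21 (adjusted p = 0.00657), in TNFRSF12A by -0.61 ± 0.13 (adjusted p = 0.00923), in osteoprotegerin by -1.39 ± 0.35 (adjusted p = 0.0205) and in NGFR by -3.08 ± 0.92 (adjusted p = 0.0423). In all 7 the libraries of one cell type lay apart from those of the other, although NGFR had only 4 to 7 counts per synoviocyte library and 0 to 2 per chondrocyte library. With the MSC donor as a block NGFR was no longer called (adjusted p = 0.0642) and TNFRSF21 was (lower in chondrocytes, adjusted p = 0.0394, edgeR), and the NGFR call was also lost with single libraries left out. DESeq2 called 11 members, the 7 above and TNFRSF19, TNFRSF25, RANKL and BAFF, beside 3503 of all 15599 genes tested, where edgeR called 2831. Calls were lost for osteoprotegerin without the chondrocyte library of donor AG1 (-1.35) or the synoviocyte library of donor PC (-1.23), and for TNFRSF8 without the PC or AG1 library of either cell type (0.83 to 0.99). Without the synoviocyte library of donor PC, 4 members were called instead of 7.

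In MSC, every member stayed short of the adjusted threshold in edgeR with each agonist, while 2 ligands, TRAIL and BAFF, stood higher in every STING library than in every untreated one. TNFSF10 was at 0.262, 4.98 and 3.99 CPM in untreated MSC, at 36.9, 25.4 and 4.04 CPM after the TLR3 agonist, at 28.1, 46.1 and 44.0 CPM after the STING agonist and at 0.301, 6.25 and 8.38 CPM after CpG. After the STING agonist all 3 values were above the highest untreated value, whereas the TLR3 value of donor 92 lay within the untreated range. The log2 differences were 2.90 ± 1.02 for the TLR3 agonist (unadjusted p = 0.0200, adjusted p = 1) and 3.65 ± 1.05 for the STING agonist (unadjusted p = 0.00758, adjusted p = 1, edgeR). DESeq2 called the latter, at 3.63 ± 0.92 (adjusted p = 0.0160), and kept the call in 5 of 9 fits with a library left out, with adjusted p between 0.000579 and 0.241.

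BAFF stood higher in the same STING libraries at a lower level. TNFSF13B was at 0.163, 0.415 and 0.103 CPM in untreated MSC, 3.17, 0.904 and 0.227 CPM after the TLR3 agonist and 1.56, 2.92 and 1.26 CPM after the STING agonist. The STING values did not overlap the untreated ones and the TLR3 value of donor 92 did, with log2 differences of 3.06 ± 1.00 (unadjusted p = 0.0143, adjusted p = 1) and 2.69 ± 0.98 (unadjusted p = 0.0240, adjusted p = 1, edgeR). Without the TLR3 library of donor PC the second value was 1.42. TRAIL and BAFF were the only members among 19 at 1 CPM or more whose STING and untreated libraries did not overlap, against 6.11% of all genes. None did so for the TLR3 agonist (1.36% of genes), and TNFRSF17 alone did for CpG (1.68%), at 1.34, 1.28 and 1.38 CPM against 1.05, 0.747 and 1.26 CPM.

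No receptor at 1 CPM or more in MSC separated either activated group from the untreated one. TNFRSF14, the LIGHT receptor, was at 0.523, 0.415 and 3.97 CPM untreated, 2.85, 2.23 and 2.67 CPM with the TLR3 agonist and 2.80, 2.13 and 6.54 CPM with the STING agonist, so that it was higher under STING in each donor while the groups overlapped (log2 difference 1.20 ± 0.85, adjusted p = 1, edgeR). Without the untreated library of donor 92 that difference was 2.98. TNFRSF1B was at 30.4, 56.4 and 51.0 CPM untreated and 42.9, 118 and 72.7 CPM with the STING agonist, again higher in each donor, at 0.76 ± 0.41 (unadjusted p = 0.0962, adjusted p = 1, edgeR). TNFRSF1A and LTBR stayed within 107 to 140 CPM and 154 to 190 CPM over the 12 MSC libraries.

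**Figure D2:**
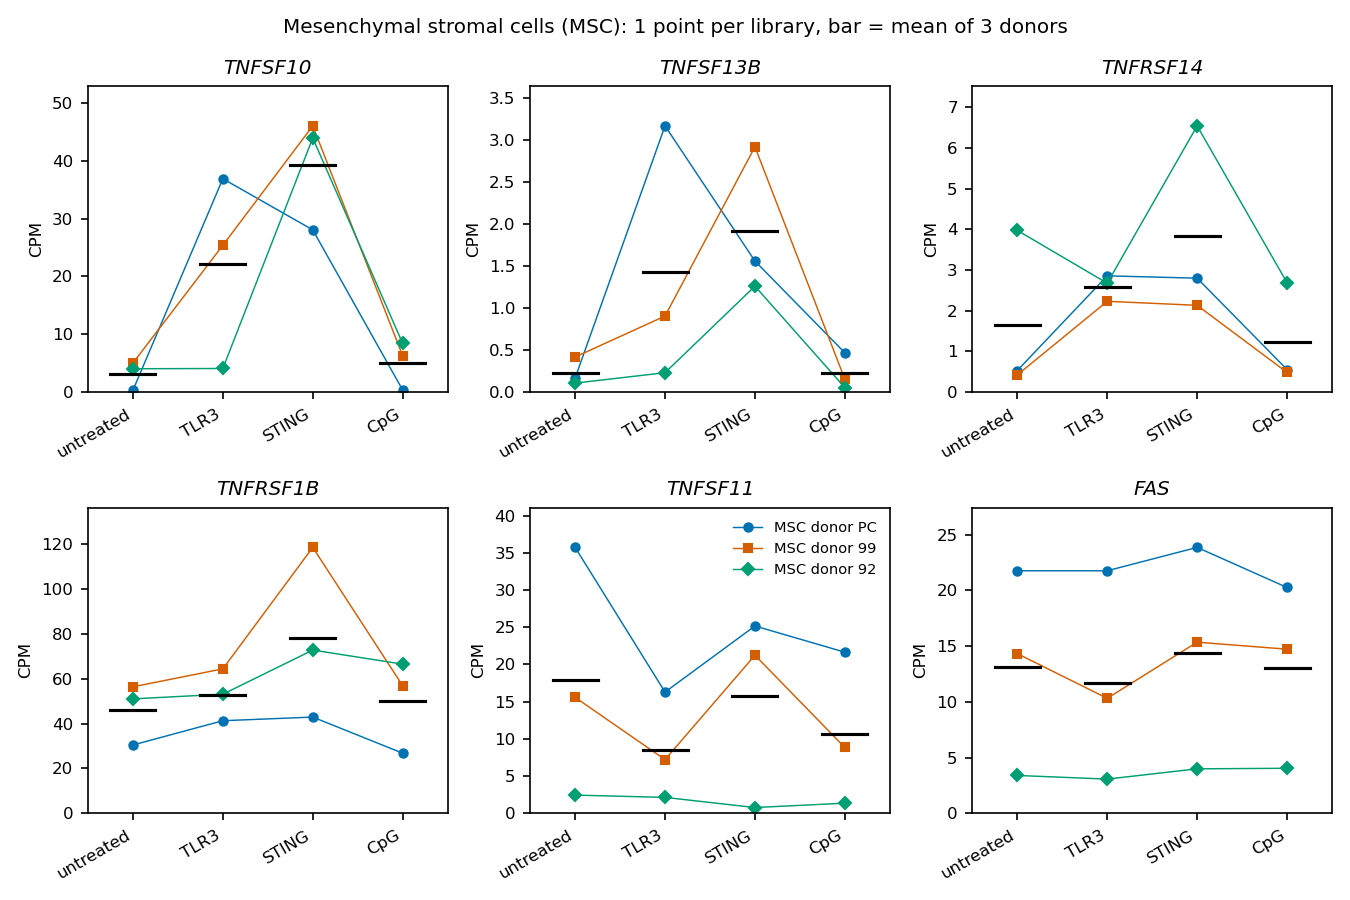
TNFSF10, TNFSF13B, TNFRSF14, TNFRSF1B, TNFSF11 and FAS in MSC by condition, in CPM. Points are libraries, joined by line for the donors PC, 99 and 92, and each bar is the mean of 3 donors. TNFSF10 and TNFSF13B lie higher in all 3 STING libraries than in any untreated library, and FAS keeps the same donor order in all 4 conditions.

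The MSC donors stood in the same order in all 4 conditions for 2 other members. FAS ran from 20.3 to 23.9 CPM in the 4 libraries of donor PC, from 10.3 to 15.4 CPM in those of donor 99 and from 3.07 to 4.04 CPM in those of donor 92. It was the single member of 17 whose 3 donor ranges did not overlap, against 9.16% of all genes. RANKL was at 35.7, 15.6 and 2.44 CPM in untreated MSC, 16.3, 7.21 and 2.13 CPM with the TLR3 agonist, 25.2, 21.2 and 0.770 CPM with the STING agonist and 21.6, 8.84 and 1.35 CPM with CpG. It kept the order PC, 99, 92 in every condition, and its differences from untreated MSC were -1.002 ± 1.24 and -0.18 ± 1.23 on the log2 scale for the TLR3 and STING agonists (adjusted p = 1 for both, edgeR). The second of these turned to 0.37 without the STING library of donor 92 and to 0.78 without the untreated library of donor PC.

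Over the 29 members tested in MSC, edgeR called 0 for each of the 3 agonists and for STING against TLR3 (0% of all genes were called). At an unadjusted p under 0.05 there were 2 members for the TLR3 agonist and 2 for the STING agonist, TRAIL and BAFF both times, against 1.15% and 2.1% of all genes. With the MSC donor as a block there were 3 and 4, all higher, against 3.2% and 9.48%. DESeq2 called 0 and 1, against 0.323% and 0.625%, and 0 between the agonists (0.00672%). With the MSC donor as a block edgeR called 0 in each, against 0%, 0.0134% and 0% of genes. The TLR3 and STING comparisons share their untreated libraries. The median log2 difference was 0.10 over the members and 0.02 over all genes for the TLR3 agonist, 0.19 and 0.01 for the STING agonist, and -0.23 and -0.02 for CpG. The macrophage marker list moved with the STING agonist too, at 54.6 to 326 CPM against 13.04 to 17.2 CPM untreated. CD68 reached 324 CPM, while PTPRC stayed at or under 0.240 CPM and AIF1, CD163, C1QB and C1QC had 0 counts in all 12 MSC libraries.

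Downstream genes were read from lists of adaptors and kinases (16 genes), death effectors and their inhibitors (11 measured), IKK, NF-kB subunits and feedback genes (19) and sheddases (5). No gene of the 4 lists was called in MSC by edgeR. Genes with an unadjusted p under 0.05 included the death effector MLKL for both agonists and, of the linear ubiquitin complex, RBCK1 for both and RNF31 for STING. MLKL, the pore-forming effector of necroptosis, was at 2.81, 1.96 and 5.73 CPM untreated and at 19.2, 11.9 and 21.0 CPM with the STING agonist, without overlap (2.29 ± 0.59, unadjusted p = 0.00419, adjusted p = 1). The median log2 difference of the death effector list was 0.41 and 0.47 for the TLR3 and STING agonists, against 0.02 and 0.01 over all genes.

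In synoviocytes the activated media left all members short of the adjusted threshold, and TRAIL was again the ligand with the largest difference. TNFSF10 was at 1.79, 1.76 and 2.18 CPM with resting MSC-CM, 3.59, 7.53 and 2.88 CPM with TLR-MSC-CM and 4.59, 3.89 and 3.49 CPM with STING-MSC-CM. All 6 libraries with activated medium were above all 3 with resting medium, at log2 differences of 1.26 ± 0.30 (unadjusted p = 0.000829, adjusted p = 0.494) and 1.04 ± 0.30 (unadjusted p = 0.00374, adjusted p = 0.634, edgeR). Leaving out the ORC library with TLR-MSC-CM took the first value to 0.78. The single library without additions was higher than any of these, at 8.62 CPM, and that with cytokines alone was at 2.90 CPM.

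Other synoviocyte members differed by smaller amounts. TNFRSF21 (DR6), a death domain receptor, was at 9.09, 6.35 and 11.1 CPM with resting MSC-CM and at 11.4, 14.3 and 11.8 CPM with TLR-MSC-CM, without overlap (0.48 ± 0.17, unadjusted p = 0.0116, adjusted p = 0.494, edgeR). RANKL was at 2.07, 1.62 and 2.02 CPM with resting medium, 2.98, 2.57 and 2.46 CPM with TLR-MSC-CM and 2.26, 3.08 and 2.13 CPM with STING-MSC-CM, also without overlap, at 0.49 ± 0.21 and 0.36 ± 0.22 (adjusted p = 0.494 and 0.650, edgeR). Osteoprotegerin did not separate, at 69.2, 52.3 and 53.2 CPM with resting medium against 57.5, 53.9 and 59.1 CPM and 66.4, 49.2 and 53.2 CPM. Members whose libraries did not overlap numbered 4 of 15 for TLR-MSC-CM (TNFSF10, TNFSF11, TNFRSF19 and TNFRSF21, all higher) beside 11.6% of all genes, and 3 of 15 for STING-MSC-CM (TNFSF10, TNFSF11 and TNFRSF19) beside 14.4%. Between the activated media TNFRSF21 alone was apart, lower with STING-MSC-CM (6.88% of genes).

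Of the 24 members tested in synoviocytes, edgeR called 0 in each of the 3 medium comparisons (0% of all genes), as did DESeq2 (0.0137% of genes for TLR-MSC-CM) and edgeR with the donor block. At an unadjusted p under 0.05 there were 5, 2 and 0 members for TLR-MSC-CM, STING-MSC-CM and the comparison of the activated media, beside 10%, 7.6% and 2.02% of all genes. The comparisons share the resting libraries. Of the downstream lists, 3 of 19 NF-kB genes (NFKBIA, NFKBIE and RELB) and 1 of 5 sheddase genes (RHBDF1) had an unadjusted p under 0.05 with TLR-MSC-CM. With STING-MSC-CM there were 2 of 19 NF-kB genes (NFKBIA and NFKBIE) and 2 of 16 adaptors and kinases (FADD, lower, and MAP3K5), none of them called. NFKBIA and NFKBIE, inhibitors of NF-kB, had log2 differences of 0.30 ± 0.14 and 0.46 ± 0.14 for TLR-MSC-CM and 0.33 ± 0.14 and 0.31 ± 0.14 for STING-MSC-CM (adjusted p = 0.496, 0.494, 0.634 and 0.634, edgeR).

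In chondrocytes few members separated between media. TRAIL was at 0.228, 0.159 and 0 CPM with resting MSC-CM, 0.0185, 0.215 and 0.0352 CPM with TLR-MSC-CM and 0.151, 0.223 and 1.79 CPM with STING-MSC-CM. Only the AG1 library with STING-MSC-CM stood out. The log2 difference of STING-MSC-CM against TLR-MSC-CM was 2.99 ± 1.31 (unadjusted p = 0.0473, adjusted p = 1, edgeR) and 1.08 without that library. FAS was lower with TLR-MSC-CM, at 3.81, 3.74 and 4.29 CPM against 4.30, 5.36 and 4.30 CPM, and TNFRSF1A was higher with STING-MSC-CM, at 97.0, 99.8 and 111 CPM against 92.4, 92.5 and 95.5 CPM. These were the only members of 15 without overlap in either comparison, beside 2.93% and 3.18% of all genes. Of 29 members tested, edgeR, DESeq2 and edgeR with the donor block each called 0 in all 3 comparisons, beside 0% of all genes by edgeR and DESeq2 and, with the block, 0.014% for STING-MSC-CM against resting medium and 0% in the others. At an unadjusted p under 0.05 edgeR without the block had 0 members for both activated media against resting medium and 1, TRAIL, between them (0.559%, 0.909% and 0.811% of genes). With the donor block it had 2 in each comparison (2.22%, 3.92% and 4.18% of genes). These were TNFRSF21 (higher) and TNFRSF25 (lower) for TLR-MSC-CM, and TNFRSF6B and TNFRSF25 (both lower) for STING-MSC-CM. Between the activated media they were TRAIL (higher) and TNFRSF6B (lower with STING-MSC-CM).

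Chondrocyte members also separated by medium donor. In the 3 libraries with medium of donor ORC, 8 of 14 members lay outside the range of the other 6 libraries, beside 41.9% of all genes. CD40 was at 14.7 to 15.8 CPM with ORC medium against 24.2 to 29.9 CPM with the others, and TNFRSF6B at 4.92 to 6.08 CPM against 9.15 to 16.5 CPM. LTBR, TNFRSF9 (4-1BB) and TNFRSF21 were also lower with ORC medium, and TNFRSF1B, TNFRSF19 and RANKL were higher. In synoviocytes 1, 1 and 0 of 14 members were apart for PC, ORC and AG1, beside 3%, 3.2% and 1.27% of all genes.

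**Figure D3:**
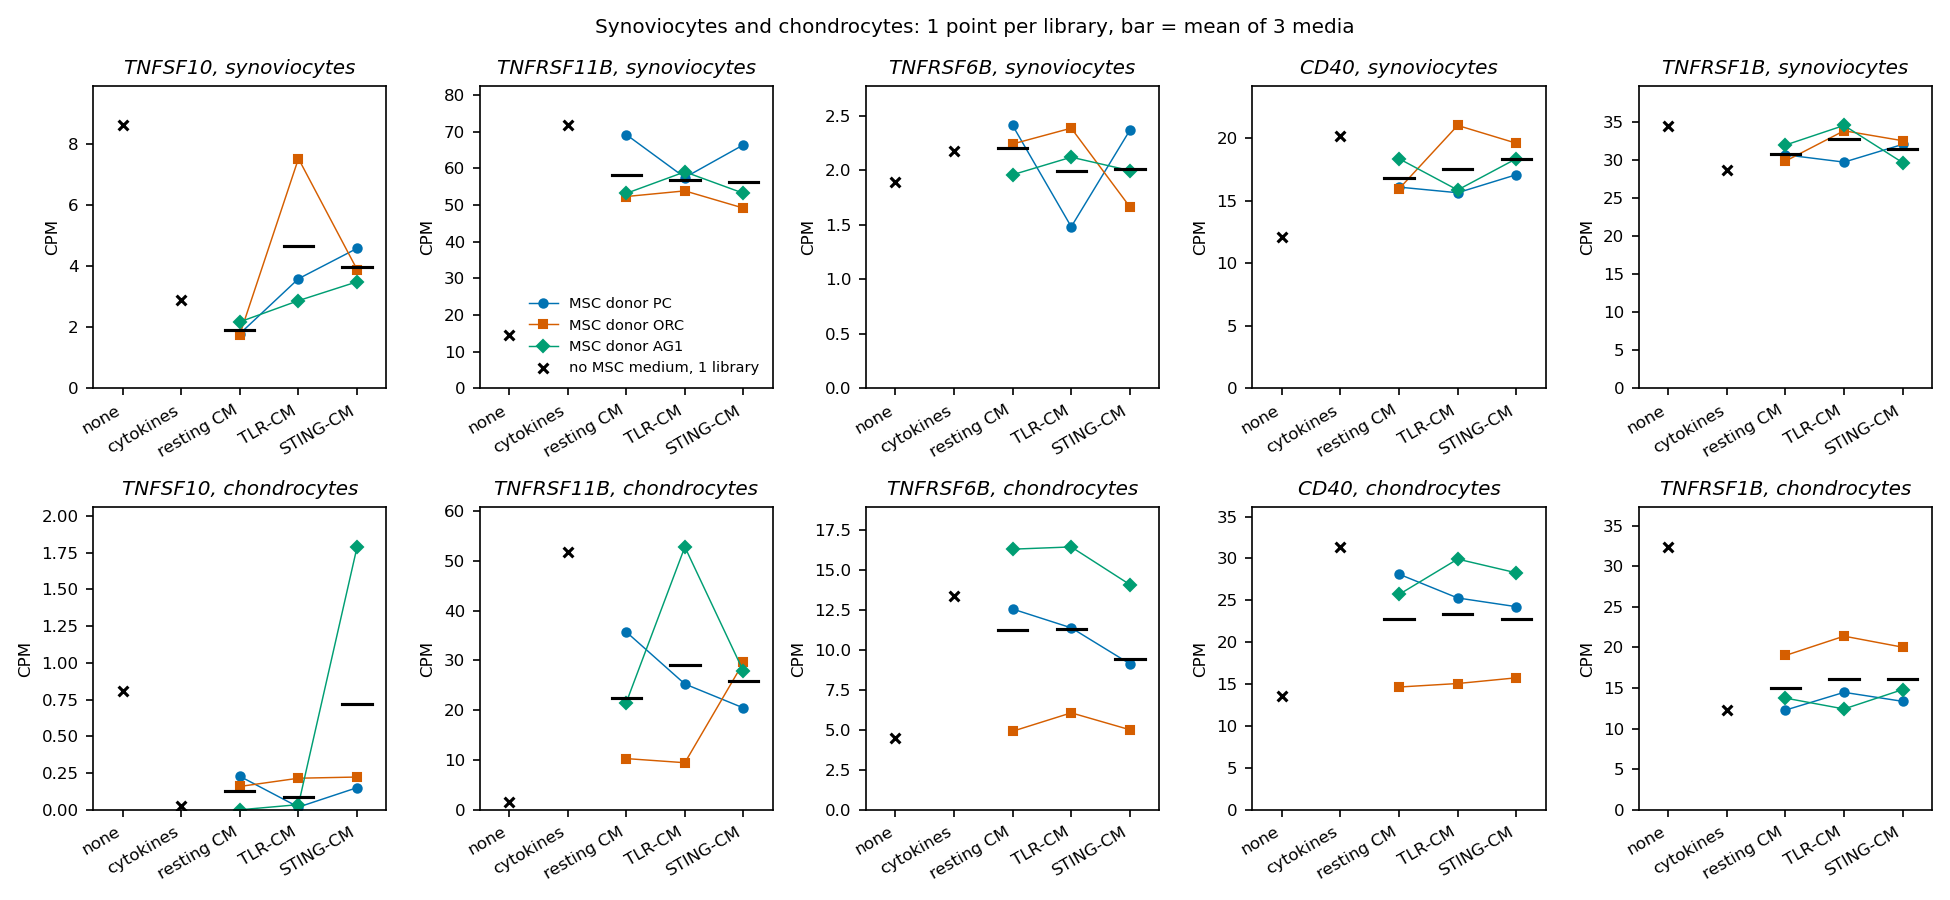
TNFSF10, TNFRSF11B, TNFRSF6B, CD40 and TNFRSF1B in synoviocytes (top) and chondrocytes (bottom), in CPM, by condition: no addition, cytokines alone, resting MSC-CM, TLR-MSC-CM and STING-MSC-CM. Crosses are single libraries without medium and points are libraries marked by the MSC donor of the medium. TNFRSF11B is low without cytokines in both cell types, at 14.6 CPM in synoviocytes and 1.47 CPM in chondrocytes, and CD40 in chondrocytes is lowest among the treated libraries with medium of donor ORC.

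The cytokines alone, compared with no addition in 1 library each and hence without a test, were accompanied by differences past 2-fold in 7 of 15 chondrocyte members. All 7 were receptors, and so were most of the 15, which are the members at 1 CPM or more. Osteoprotegerin was at 1.47 CPM without addition and 51.8 CPM with cytokines, a ratio of 35.3 (95% interval 25.7 to 50.1 for counting error only). TNFRSF6B was at 4.48 and 13.4 CPM, a ratio of 2.99 (2.44 to 3.69), CD40 at 13.6 and 31.4 CPM, and TNFRSF12A at 28.2 and 57.1 CPM. TNFRSF1B was lower with cytokines, at 12.3 CPM against 32.4 CPM, as were TNFRSF21, at 5.61 against 15.7 CPM, and TNFRSF25 (DR3), at 0.733 against 3.55 CPM. The 7 stand beside 9.72% of all genes past 2-fold, and FAS and TNFRSF1A were not among them. TRAIL was under 1 CPM and so not counted, at 0.810 CPM (21 counts) without addition and 0.0253 CPM (1 count) with cytokines. With cytokines and resting MSC-CM, osteoprotegerin was lower than with cytokines alone, at 35.7, 10.3 and 21.5 CPM, and it was the 1 member of 15 past 2-fold (0.9% of genes).

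Synoviocytes shared the osteoprotegerin difference, at 14.6 CPM without addition and 71.7 CPM with cytokines (ratio 4.92, 4.44 to 5.45), and had TRAIL in the opposite direction, at 8.62 and 2.90 CPM (2.97-fold lower, 2.31 to 3.86). These were 2 of 16 members past 2-fold, beside 4.11% of genes. CD40 was at 12.1 and 20.2 CPM. Resting MSC-CM against cytokines alone had 0 of 15 members past 2-fold (0.0339%). In macrophages 0 of 29 members were past 2-fold with cytokines (0.293%) and 0 of 30 with resting MSC-CM against cytokines (0.815%). TNF was at 29.0 CPM without addition and 28.0 CPM with cytokines there.

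In macrophages the smallest p-values between the activated media belonged to 2 receptors, CD27 and TNFRSF8, neither of them called by edgeR without a donor block. CD27, the receptor of CD70, was at 3.45, 4.55 and 3.17 CPM with resting MSC-CM, 4.83, 4.55 and 5.41 CPM with TLR-MSC-CM and 1.88, 2.90 and 2.71 CPM with STING-MSC-CM. Every TLR library was above every resting library and every STING library below them, although the ORC values with resting medium and TLR-MSC-CM were nearly equal. Between STING-MSC-CM and TLR-MSC-CM the log2 difference was -0.94 ± 0.21 (unadjusted p = 0.00128, adjusted p = 0.555, edgeR). TNFRSF8, the receptor of CD30 ligand on activated lymphocytes, was at 19.9, 26.6 and 26.8 CPM with resting medium, 27.5, 25.4 and 41.5 CPM with TLR-MSC-CM and 17.1, 18.9 and 18.3 CPM with STING-MSC-CM. The 3 STING values were the lowest of the 9 libraries with medium, beside 18.2 CPM with cytokines alone, at -0.75 ± 0.17 against TLR-MSC-CM (unadjusted p = 0.00125, adjusted p = 0.555, edgeR).

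Both receptors were called between the activated media once the MSC donor was a block, at -0.96 ± 0.20 for CD27 and -0.73 ± 0.13 for TNFRSF8 (adjusted p = 0.0364 and 0.0242, edgeR), beside 2.23% of all genes called, and by DESeq2 at -0.93 ± 0.24 and -0.74 ± 0.19 (adjusted p = 0.0381 and 0.0467), beside 0.206%. The blocked call was kept in 1 of 9 fits with a library left out for CD27 and in 6 of 9 for TNFRSF8. Without the AG1 library with TLR-MSC-CM the blocked differences were -0.86 (adjusted p = 0.0896) and -0.56 (adjusted p = 0.0499). DESeq2 kept the call in 2 of 9 such fits for CD27 and in 4 of 9 for TNFRSF8, and lost both without that library (adjusted p = 0.305 and 0.335).

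TNFRSF25, the receptor of TL1A on lymphocytes, was at 7.12, 7.69 and 7.70 CPM with resting medium, 8.43, 8.05 and 12.9 CPM with TLR-MSC-CM and 6.55, 6.85 and 6.41 CPM with STING-MSC-CM. The 3 groups did not overlap, and the difference between the activated media was -0.52 ± 0.16 (unadjusted p = 0.00974, adjusted p = 0.735, edgeR), or -0.30 without the AG1 library with TLR-MSC-CM. TNFRSF14 went the other way, at 142, 158 and 127 CPM with resting medium and 193, 184 and 163 CPM with STING-MSC-CM, without overlap, at 0.32 ± 0.13 (unadjusted p = 0.0289, adjusted p = 0.907, edgeR). The libraries without addition and with cytokines alone were higher still, at 229 and 218 CPM. BAFF was higher with STING-MSC-CM than with resting medium of the same donor in all 3 donors, at 89.2, 81.4 and 50.6 CPM against 60.0, 55.4 and 37.1 CPM, while the groups overlapped (0.52 ± 0.25, adjusted p = 0.907, edgeR).

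Of the 36 members tested in macrophages, edgeR called 0 in all 3 medium comparisons (0% of all genes). At an unadjusted p under 0.05 there were 0 members for TLR-MSC-CM, 3 for STING-MSC-CM (1 higher and 2 lower) and 4 between the media (1 higher and 3 lower), beside 2.13%, 4.76% and 6.6% of genes. With the donor block there were 1, 5 and 7, beside 6.26%, 13.5% and 16.3% of genes. DESeq2 called 0, 0 and 2, and the donor block 0, 0 and 2, where STING-MSC-CM against resting medium had 0.0598% of all genes called by DESeq2 and 0.531% with the block. Members without overlap numbered 2 of 30 for TLR-MSC-CM (CD27 and TNFRSF25, higher), beside 5.7% of genes, 5 of 30 for STING-MSC-CM (TNFRSF14 higher, CD27, CD70, TNFRSF8 and TNFRSF25 lower), beside 10.4%, and 6 of 30 between the media (LTBR higher, CD27, CD70, LTB, TNFRSF8 and TNFRSF25 lower), beside 13.4%. The comparisons share libraries. The donor block also called 3 downstream genes between STING-MSC-CM and TLR-MSC-CM, with the NF-kB subunit REL and the adaptor TRAF6 lower, at -0.51 ± 0.11 and -0.32 ± 0.07, and RHBDF2, which carries the TNF sheddase ADAM17 to the surface, higher at 0.41 ± 0.08 (edgeR, adjusted p = 0.0438 for REL, 0.04999 for TRAF6 and 0.0275 for RHBDF2). Without the block none was called (adjusted p = 0.735, 0.727 and 0.727, edgeR), nor by DESeq2 (0.445, 0.419 and 0.266).

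**Figure D4:**
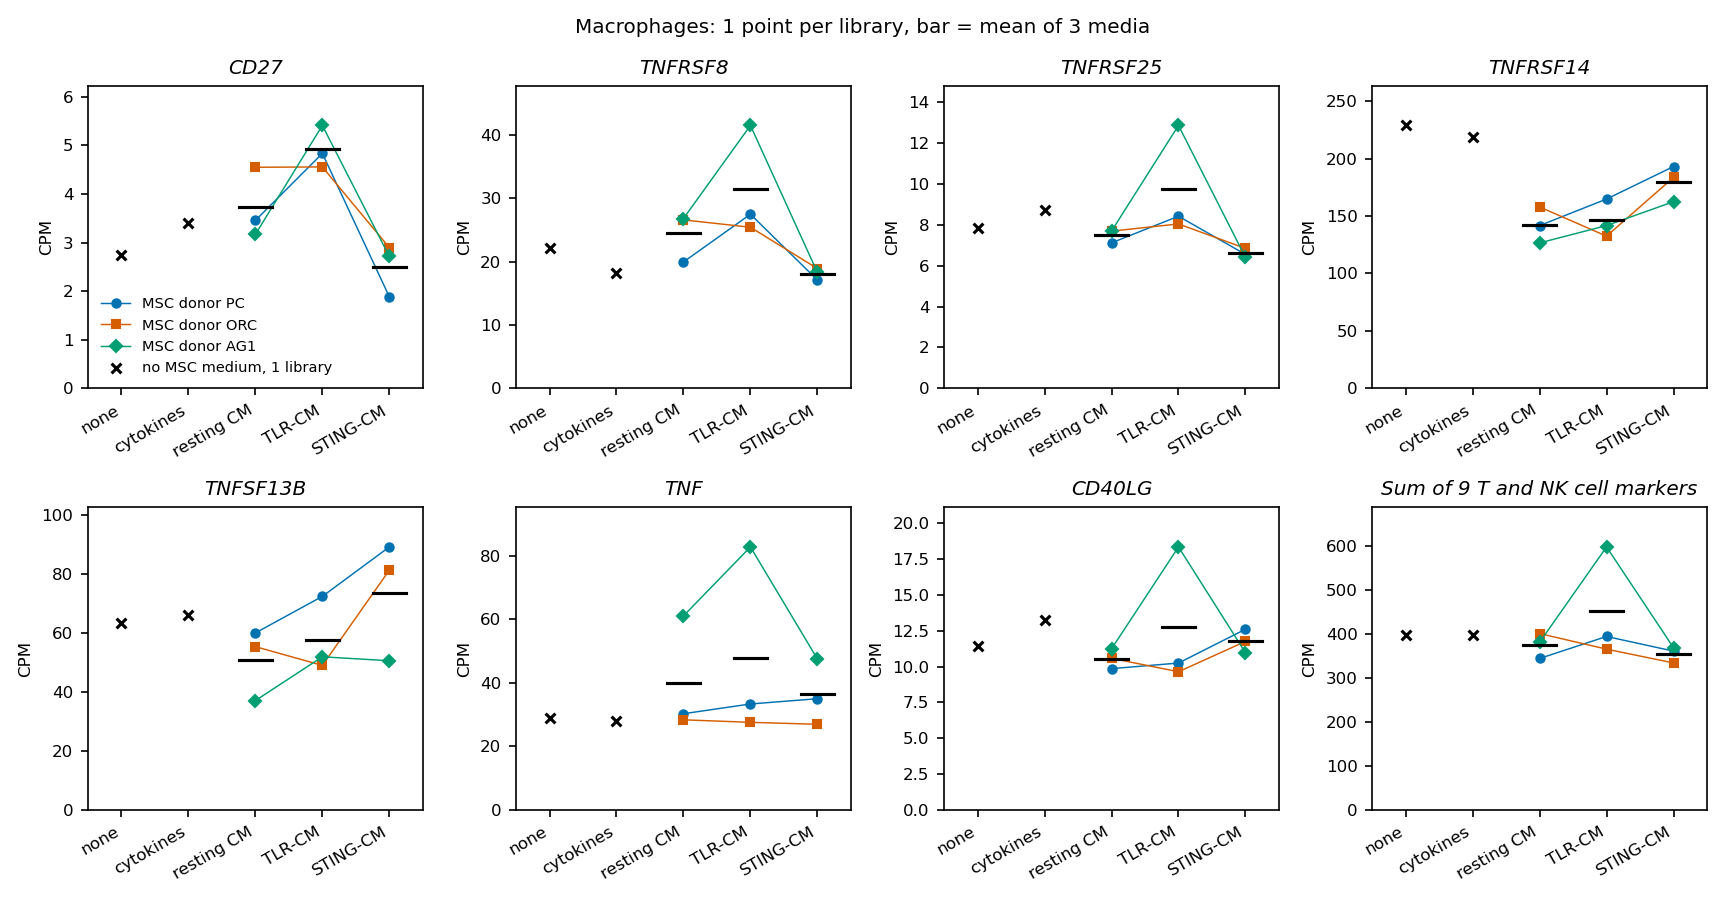
CD27, TNFRSF8, TNFRSF25, TNFRSF14, TNFSF13B, TNF and CD40LG in macrophages, with the sum of 9 T and NK cell markers, in CPM. Conditions run from no addition and cytokines alone (crosses, 1 library each) to resting MSC-CM, TLR-MSC-CM and STING-MSC-CM, with points marked by the MSC donor of the medium. The TLR-MSC-CM library of donor AG1 is the highest in TNF, at 82.8 CPM, in CD40LG, at 18.4 CPM, and in the marker sum, at 598 CPM.

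T and NK cell markers were detected in the same libraries. Their sum, over 9 genes all detected in macrophages, was 344, 401 and 381 CPM with resting medium, 395, 366 and 598 CPM with TLR-MSC-CM and 361, 334 and 369 CPM with STING-MSC-CM. It was highest in the AG1 library with TLR-MSC-CM, as were CD27, TNFRSF8 and TNFRSF25. So were other members, among them CD40, TNF, FAS, TNFRSF9, TNFRSF12A and TNFSF9. Against resting medium, the sum with STING-MSC-CM was higher in donor PC and lower in donors ORC and AG1. CD27, TNFRSF8 and TNFRSF25 were lower with STING-MSC-CM in all 3 donors. CD3D, CD3G, CD2 and KLRD1 had 0 counts in all 34 other libraries. Several members spanned a narrower range per unit of this sum than in CPM over the 11 macrophage libraries. CD40LG spanned a 1.90-fold range in CPM and a 1.35-fold range per unit of the marker sum, LTB 2.14-fold and 1.38-fold, TNFRSF25 2.01-fold and 1.27-fold, FASLG 1.98-fold and 1.42-fold, and TNFRSF8 2.43-fold and 1.54-fold. CD27 narrowed less, from 2.87-fold to 2.39-fold, and LTA, CD70, TNF and TNFRSF12A narrowed as well. TNFSF10, TNFSF12 and LTBR widened instead, from 1.60-fold to 2.38-fold, from 1.58-fold to 2.74-fold and from 1.32-fold to 2.16-fold. Other members, such as TNFRSF14 and TNFSF13B, widened too. The members named here were chosen after their values were seen, and the part of the T and NK cells in the medium differences was not tested.

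Some macrophage members separated by medium donor as well, as did many other genes. In the 3 libraries with medium of donor AG1, 7 of 30 members lay outside the range of the other 6 libraries with medium, beside 17.2% of all genes. For PC and ORC there were 4 and 3 of 30, beside 7.21% and 4.74%. TNF was at 61.1, 82.8 and 47.5 CPM with resting, TLR- and STING-MSC-CM of AG1 and between 26.9 and 35.00 CPM with medium of PC or ORC. CD40 was at 277, 315 and 210 CPM with AG1 medium against 127 to 166 CPM, and TNFRSF1B at 1005, 916 and 915 CPM against 567 to 697 CPM. TNFRSF12A, TNFRSF18 and TNFSF4 were also higher with AG1 medium, and TWEAK was lower.

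The difference in response between cell types was tested directly by interaction terms in a fit of all 27 joint cell libraries with medium. The interactions covered TLR-MSC-CM and STING-MSC-CM, each against resting medium. Of the members tested, edgeR called 0 in each of the 6 interactions (0% of all genes), so the TRAIL difference in synoviocytes was not shown to be particular to those cells. For the CD27 difference between the activated media in macrophages no interaction was tested. DESeq2 and edgeR with the donor block called 0 members as well, beside at most 0.0241% and 0.103% of all genes. At an unadjusted p under 0.05 (edgeR), macrophages and synoviocytes differed in 2 members for TLR-MSC-CM and 2 for STING-MSC-CM, beside 3.99% and 4.38% of genes. Macrophages and chondrocytes differed in 0 and 3, beside 2.64% and 3.59%, and chondrocytes and synoviocytes in 0 and 1, beside 1.72% and 1.74%. TRAIL in macrophages was at 126, 142 and 111 CPM with resting medium, 139, 116 and 121 CPM with TLR-MSC-CM and 149, 161 and 101 CPM with STING-MSC-CM, with overlap throughout.

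Many members lie next to each other in the genome, and the neighbours differed in how far they shared cell types. By gene order in the RefSeq annotation of the horse assembly TB-T2T, in which all 39 members were found by symbol, no protein-coding gene lies between TNFRSF4 and TNFRSF18, between LTA and TNF, between TNF and LTB, between TNFSF9 and CD70 or between CD70 and TNFSF14. These 3 groups held only members that reached 1 CPM in macrophages alone. TNFRSF1B and TNFRSF8 are neighbours that reached it in all 4 cell types. LTBR and CD27 are neighbours as well, with LTBR present in every cell type and CD27 in macrophages, and TNFSF18, which lies between FASLG and TNFSF4, was not detected above 3 counts anywhere. Whether neighbouring genes share reads was not tested.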

How the data were processed

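RNA was sequenced from 12 MSC and 33 joint cell libraries. The authors trimmed reads with cutadapt 1.12, aligned them with STAR to EquCab3.0 and counted them with HTSeq 0.11.0, as the submitters' processing notes and the study's methods give it, and the deposited values are raw counts per protein-coding gene. The strand setting is not given in the sources used here. No libraries held identical counts, and 0 columns were left unused. Members and lists were chosen with earlier results of these data known.

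CPM was computed from the counts. Genes whose counts summed to 10 or more over a fit were tested with edgeR 4.0.16 (R 4.3.3; TMM, quasi-likelihood, Benjamini-Hochberg over all genes tested), separately for each cell type over 9 libraries, with all 12 MSC libraries for CpG. A call is an adjusted p under 0.05. Alternatives were DESeq2 1.42.0, DESeq2 size factors, no count filter, the MSC donor as a block, the study's thresholds (unadjusted p not above 0.05, absolute log2 fold change not under 2) and each library left out. P-values measure the spread between libraries, which in joint cells differ only in medium donor. Exact permutation tests of 3 against 3 libraries cannot go below p = 0.1 (two-sided). Intervals and floors cover counting error only. Groups without overlap were counted among genes at 1 CPM or more in a group. Values in every library are given for members called by any fit, for a preset list of members and for those over 32-fold apart between cell types, and for the 3 smallest p-values of a comparison.

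Donor numbers pair the samples, since the labels name the same MSC donor. Same-donor libraries deviated together in 9 of 9 pairs in MSC (median r = 0.823), chondrocytes (0.667) and macrophages (0.422), and in 2 of 9 in synoviocytes (0.0546). The fits were tested on simulated counts with known changes in well-counted genes. Of simulated log2 changes of 1, edgeR called 14% for the TLR3 agonist and 8% for CpG in MSC. With TLR-MSC-CM against resting medium it called 99% in synoviocytes, 85% in chondrocytes and 93% in macrophages. For the difference between macrophages and synoviocytes in the change with TLR-MSC-CM it called 67%. Log2 changes of 3 were called in 93% or more of cases in each comparison tried, and none of these was a STING comparison. In the data, TRAIL and BAFF after the STING agonist in MSC had log2 differences above 3 and were not called by edgeR. TRAIL in synoviocytes with TLR-MSC-CM had one above 1 and was not called either. Whether these shares hold for the members was not tested. Figures and summaries used Python 3.11.15, numpy 2.4.6, pandas 2.3.3, scipy 1.17.1 and matplotlib 3.10.9. No sequences, transcript lengths or promoters were used here, so no motif search was run. A gene of the downstream lists is not reported here.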

Additional observations from a re-analysis of the deposited data

Results flagged for a closer look

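For 3 members the activated and resting media differed in one direction in every chondrocyte donor pair and in the opposite direction in every macrophage donor pair, by log2(CPM + 0.5). With TLR-MSC-CM against resting MSC-CM, TNFRSF25 differed by a mean of -0.51 in chondrocytes (-0.84 to -0.29) and by 0.33 in macrophages (0.06 to 0.71), a difference of -0.84. With STING-MSC-CM, TNFRSF1A differed by 0.13 in chondrocytes and -0.11 in macrophages, a difference of 0.24, and TNFRSF1B by 0.10 and -0.09, a difference of 0.18. These per-donor differences were not tested, and the interaction terms of the edgeR fit called none of the 3 members. The share of all genes with such opposite directions is not given here, so the 3 members are not a result about the family.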

How the results depend on the processing

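Counts of called members were the same under most alternatives. With the study's thresholds there were 2 members for the TLR3 agonist and 2 for the STING agonist in MSC, 1 in chondrocytes between STING- and TLR-MSC-CM, 3 in place of 7 between chondrocytes and synoviocytes, and 2 and 1 in the STING-MSC-CM interactions of macrophages with chondrocytes and of chondrocytes with synoviocytes. With the same thresholds there were 29 in place of 34 between macrophages and synoviocytes and 29 in place of 35 between macrophages and chondrocytes. DESeq2 called 1 for the STING agonist in MSC, 2 between STING- and TLR-MSC-CM in macrophages and 11 between chondrocytes and synoviocytes. It called 33 between macrophages and synoviocytes and 36 between macrophages and chondrocytes. The replicate block by MSC donor called 2 in macrophages between the activated media (CD27 and TNFRSF8), lost NGFR and gained TNFRSF21 between chondrocytes and synoviocytes, lost LTBR between macrophages and synoviocytes, and changed no other call of a member. With each library left out, the count ran from 4 to 8 between chondrocytes and synoviocytes, 34 to 36 between macrophages and chondrocytes and 32 to 34 between macrophages and synoviocytes. Leaving libraries out of the blocked or DESeq2 fits, an alternative chosen after seeing the data, gave 0 to 2 in macrophages between the activated media and 0 to 2 for the STING agonist in MSC. RANKL (TNFSF11) in MSC under the STING agonist ran from -0.71 to 0.78 as libraries were left out, and turned from -0.18 to 0.37 without donor 92 of the STING group and to 0.78 without donor PC of the untreated group. Among values of single named members, 892 kept direction and side of the threshold, 24 lost a call, 20 gained one and 2 turned. The causes were not tested.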
